A study of Mus musculus with 2 samples.

Results

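The cells described here were 173 barcodes, of 13818 that passed the filters, in single-cell RNA sequencing of live CD45+ cells from B16 melanoma tumours, and they are called Retnlg-negative granulocytes. A barcode was a member when S100a8 and S100a9, the alarmin genes of neutrophils, together held at least 200 of every 10000 unique molecular identifiers (UMIs, the counted RNA molecules), when it had no UMI of Retnlg, when C1qa, C1qb and C1qc held at most 5 per 10000, and when it had no UMI of Cd3d, Cd3e or Cd3g. A passing barcode had 200 or more detected genes and no more than 10% of its UMIs from mitochondrial genes. Of the members, 118 came from the library labelled WT and 55 from the library labelled KO. The 382 barcodes that met the same rule but had at least 1 Retnlg UMI, 258 labelled WT and 124 labelled KO, are called Retnlg-positive granulocytes and were the closest comparison.

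Tumours were digested and cells that stained for the leucocyte protein CD45 and not for the dead-cell dye 7-AAD were sorted and loaded on the 10x Genomics 3′ v3 system. Both groups were mice on the C57BL/6 background, aged 8 weeks, that carried floxed Mettl3 alleles (fl/fl). WT mice were Cre-negative littermates (Lyz2 +/+), and KO mice carried the Lyz2-Cre allele (Lyz2 cre/+), in which Cre sits in the Lyz2 gene and is active in myeloid cells, granulocytes among them. The product of Mettl3 is the methyltransferase that places the m6A mark on RNA. Each genotype gave 1 library made from pooled mice, per the study's description, so mouse-to-mouse spread was not measured, no test was run, and every comparison below sets 2 libraries or 2 classes of barcodes side by side. The range after each value is its 95% interval, exact Clopper-Pearson for shares, exact Poisson for summed UMIs and exact conditional binomial for log2 ratios. It covers counting error only, and because the UMIs of many genes sat in few barcodes it is too narrow for the spread between cells.

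Neutrophils are short-lived granulocytes that carry preformed granule proteins and, when stimulated, release chemokines that draw in further leucocytes. Their granule genes are transcribed mainly in the bone marrow, whereas genes of hypoxia, of glycolysis and of NF-kB signalling can be switched on in tissue. Retnlg encodes a secreted resistin-like protein that is abundant in marrow and blood neutrophils. Members and gene lists were chosen with results of these data known, and S100a8, S100a9, Retnlg, the C1q genes and the Cd3 genes were used to choose the members, so their levels describe the choice and support nothing.

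The members were shallow barcodes. Those labelled WT held 517 to 10298 UMIs with a median of 1181.5, and those labelled KO held 516 to 11400 with a median of 891. Medians of the Retnlg-positive granulocytes were 1561.5 and 1166.5 UMIs, and medians of all passing barcodes were 4354 and 3740. In all, 178993 UMIs stood behind the values for the members labelled WT and 79379 behind those labelled KO. Of these UMIs 25.1% came from 7 barcodes over 3000 UMIs in the library labelled WT and 40.0% from 6 such barcodes in the library labelled KO. For many results, but not all, the value without those few deep barcodes is given. The deposited libraries held 5895 and 8446 barcodes, of which 13 barcode sequences occurred in both, none of them a member. Mettl3, the targeted gene, had 1 UMI in the members labelled WT and 0 in those labelled KO, counts too low to check the labels, and in the remaining passing barcodes it stood at 9.25 and 10.5 UMIs per 1000000 of the class (CPM). A 3′ tag outside a deleted exon would in any case be counted in both genotypes.

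The granulocyte label was checked against marker genes. Cxcl3, Ccl3, Hcar2 and G0s2 came with the choice of these barcodes, so their high levels were known in advance and they were left out of the count. Of 15 other granulocyte markers outside the rule that reached the level for comparison, 14 were at least 2-fold higher in the members than in all other passing barcodes of both libraries, beside 16.8% of all genes compared. The summed level of the 16 listed markers of this kind was 18100 CPM in the members labelled WT against 1260 in the other barcodes, and 14800 against 1140 in the library labelled KO. Csf3r, the receptor for granulocyte colony-stimulating factor, stood at 1410 CPM in the members labelled WT and 1260 in those labelled KO, against 73.2 and 51.9 in the other barcodes. Cxcr2, the neutrophil receptor for CXC chemokines, stood at 804 and 781 CPM against 27.5 and 9.25. Ly6g, the surface antigen commonly used to sort mouse neutrophils, had only 3 UMIs in the members labelled WT and 0 in those labelled KO, and 61.1 and 49.4 CPM in Retnlg-positive granulocytes. The median depth of the members was under 33.3% of the median of their own library. Of the granulocyte markers Cxcl3, G0s2 and Hdc were among the 10 genes with the highest ratios over all other barcodes. Hdc had UMIs in 82 of 118 members labelled WT and 28 of 55 labelled KO.

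Markers of mast cells, basophils, eosinophils and lymphocytes were nearly absent from the members. The rule had dropped every barcode with a Cd3 UMI, so few T cell markers were to be found by choice. Mast cell and basophil markers had 0 UMIs in either library, eosinophil markers 3 and 2, T and NK cell markers 9 and 7, and B cell markers 15 and 5. T and NK cell markers stood at 50.3 and 88.2 CPM in members and at 16.1 and 0 CPM in Retnlg-positive granulocytes. Melanoma markers had 21 UMIs in 16 members labelled WT and 14 in 9 labelled KO, at 117 and 176 CPM. Without the barcodes over 3000 UMIs the melanoma sums were 134 and 189 CPM. Of 10 dendritic cell markers Xcr1, Clec9a, Cd209a, Zbtb46 and Siglech were at 0 in both libraries, but the list as a whole, which includes Cd74 and H2-Ab1, held 405 UMIs in 45 members labelled WT and 162 in 19 labelled KO, a summed level of 2260 and 2040 CPM. Without the barcodes over 3000 UMIs the dendritic cell sums were 775 and 1110 CPM. Macrophage markers were present, with all 10 of 10 detected in each library and a summed level of 2340 CPM in the library labelled WT and 3250 in the library labelled KO. Without the barcodes over 3000 UMIs these sums were 1190 and 882 CPM. Apoe, a lipid carrier abundant in macrophages, had 122 UMIs in the members labelled KO, but 2 barcodes held 50% of them. Monocyte markers summed to 1920 and 2480 CPM with the deep barcodes and to 365 and 672 without them. Whether these transcripts came from mixed barcodes or from free RNA was not tested.

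Retnlg-negative granulocytes were a smaller share of the library labelled KO. They were 2.08% (1.73 to 2.49) of the passing barcodes labelled WT, 118 of 5661, and 0.674% (0.508 to 0.877) of those labelled KO, 55 of 8157. The log2 ratio was -1.63 (-2.09 to -1.17). Retnlg-positive granulocytes were 4.56% and 1.52%, a log2 ratio of -1.58 (-1.89 to -1.28), so both classes were scarcer in the library labelled KO to a like degree. Among granulocyte barcodes the Retnlg-negative share was 31.4% (26.7 to 36.3) labelled WT and 30.7% (24.1 to 38.0) labelled KO, a log2 ratio of -0.03 (-0.41 to 0.35). Shares depend on what else was sorted into each library, and fewer cells of this kind cannot be told apart from more cells of other kinds.

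The Retnlg-negative share of granulocyte barcodes was higher at low depth. Below 1000 UMIs it was 58.0% (45.5 to 69.8) labelled WT and 47.3% (35.6 to 59.3) labelled KO. From 1000 to under 2000 UMIs it was 29.8% (23.7 to 36.4) and 16.2% (8.36 to 27.1), and from 2000 UMIs it was 15.2% (8.58 to 24.2) and 24.3% (11.8 to 41.2). With every barcode thinned to 1000 UMIs, 32.6% (27.4 to 38.1) of 307 granulocyte barcodes labelled WT and 23.8% (16.0 to 33.1) of 105 labelled KO had no Retnlg UMI, and shallower barcodes were left out. At 500 UMIs the shares were 49.5% of 376 and 44.7% of 179. An absent Retnlg UMI in a shallow barcode therefore does not show an absent transcript. In cells that should lack Retnlg, a UMI of it was seen in 2.69% of Cd3-positive barcodes labelled WT and 0.823% of those labelled KO, whose median depths were 2890 and 2604 UMIs.

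**Figure D1:**
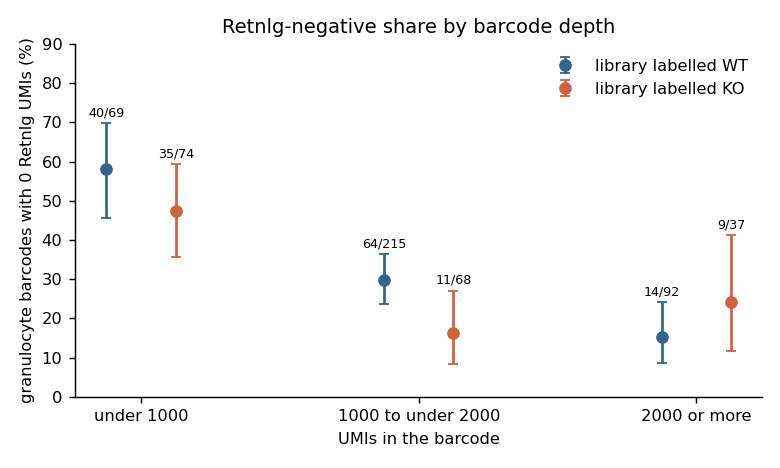
Share of granulocyte barcodes with 0 Retnlg UMIs (y axis, percent) by the barcode's UMI total (x axis), for the library labelled WT (blue) and the library labelled KO (orange). Points are shares, bars are 95% Clopper-Pearson intervals and the labels give barcodes counted. The WT share was 58.0% under 1000 UMIs and 15.2% from 2000 UMIs.

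The C1q part of the rule acted on single molecules in shallow barcodes, since below 2000 UMIs 1 UMI of C1q already exceeds 5 per 10000. It alone kept out 70 further barcodes labelled WT and 24 labelled KO, of which 42 and 10 had just 1 C1q UMI. A C1q UMI was also present in 62.5% of barcodes labelled WT and 56.2% labelled KO that had a UMI of a Cd3 gene. The excluded barcodes held Cxcl2 at 13000 CPM in the library labelled WT and 4840 in the library labelled KO, and hypoxia genes at 8080 and 6790 CPM. Cxcl2 differed across the alarmin threshold, between bins of few barcodes. Just inside it, from 200 to under 250 per 10000, were 9 and 8 barcodes with Cxcl2 at 17600 and 13600 CPM and a summed hypoxia level of 9360 and 9970 CPM. Just outside, from 150 to under 200, were 10 and 12 barcodes with Cxcl2 at 5650 and 5160 CPM and hypoxia genes at 7120 and 9930 CPM.

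Against all other passing barcodes, 687 of 4096 genes compared (16.8%) were at least 2-fold higher in the members of both libraries, with a pseudocount of 1 CPM. The 10 with the highest ratios were Gm5483, Lcn2, Stfa2l1, Slfn4, Il1f9, AC110211.1, Hdc, Cxcl3, G0s2 and Cxcl2. Cxcl3, which encodes a neutrophil-attracting chemokine, was 4.91 higher on the log2 scale in the library labelled WT and 5.83 in the library labelled KO. G0s2, an inhibitor of the fat-cleaving enzyme ATGL, was 4.89 and 5.73 higher, and Hdc, the histamine-forming enzyme, 4.92 and 5.24. Hcar2, a receptor for the ketone body beta-hydroxybutyrate and for niacin, was 4.23 and 5.11 higher. Stfa2l1 and Gm5483 belong to the stefin A family, whose near-identical copies can share reads, so their single levels are uncertain. These genes separated granulocytes from the rest of the tumour, and not all were higher than in Retnlg-positive granulocytes. G0s2, one of the genes given as a mark of the members, stood at 1120 CPM in the members and 981 in the Retnlg-positive granulocytes labelled WT, and at 592 and 540 CPM in the library labelled KO. Both G0s2 intervals included 0, with log2 ratios of 0.19 (-0.05 to 0.42) and 0.13 (-0.38 to 0.63).

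Against Retnlg-positive granulocytes, genes with at least 20 UMIs over both classes in each library were called higher or lower when the interval lay on the same side of 0 in both libraries. Of 2166 such genes 133 (6.14%) were higher in the members and 57 (2.63%) lower, and the median log2 ratio of all of them was 0.03 in each library. Without the barcodes over 3000 UMIs 131 of the 133 and 41 of the 57 kept their direction in both libraries. With each barcode of at least 1000 UMIs thinned to 1000, which left 78 and 20 members and 20000 UMIs in those labelled KO, 119 of the 133 and 43 of the 57 did. A rule of at least 2-fold in both libraries among 3569 genes, which does not weigh counting error, gave 104 higher (2.91%) and 54 lower (1.51%). Both sets of counts follow from a contrast that the Retnlg part of the rule defined, so the list counts below are descriptions.

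A few chemokine genes were higher in the members. Of 13 chemokines with enough UMIs, Cxcl2, Cxcl3, Ccl3 and Ccl4 were higher in both libraries, Ccl7 and Ccl12 were lower and 7 were neither. Over all genes compared 6.14% were higher and 2.63% lower. Cxcl3 and Ccl3 are among the genes given with the choice of these barcodes. The 22 genes of the list summed to 36900 CPM (36000 to 37800) in the members labelled WT against 19300 in Retnlg-positive granulocytes, and to 24100 (23000 to 25200) against 10000 in the library labelled KO. The list's median log2 ratio was 0.02 in the library labelled WT and 0.97 in the library labelled KO, and its summed ratio was carried by few genes.

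Cxcl2 encodes a ligand of Cxcr2 that attracts neutrophils and lies at chr5:90903871-90905938 (GRCm38, plus strand), near Cxcl3 at chr5:90786103-90789600 on the same strand. Cxcl2 stood at 19900 CPM (19300 to 20600) in the members and 10600 in Retnlg-positive granulocytes labelled WT, a log2 ratio of 0.91 (0.85 to 0.97). The same gene stood at 12300 CPM (11600 to 13100) and 3270 in the library labelled KO, with a log2 ratio of 1.92 (1.78 to 2.05). It was thus high in both classes and higher in the members. A Cxcl2 UMI was present in 81.4% of members labelled WT and 61.8% of those labelled KO. Thinned to 500 UMIs the shares were 76.3% and 54.5% in members, 59.7% and 32.3% in Retnlg-positive granulocytes, and 3.28% and 2.70% in Cd3-positive barcodes, where the transcript should be lacking. Per member, Cxcl2 ranged from 0 to 2060 per 10000 UMIs with a median of 81.6 in the library labelled WT, and from 0 to 1280 with a median of 24.5 in the library labelled KO.

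Cxcl3 was rarer and uneven. It had 320 UMIs in 38 of 118 members labelled WT and 125 UMIs in 12 of 55 labelled KO. These gave 1790 CPM against 780 in Retnlg-positive granulocytes labelled WT, a log2 ratio of 1.20 (0.99 to 1.40), and 1570 against 181 CPM in the library labelled KO, with a log2 ratio of 3.11 (2.61 to 3.65). Just 7 barcodes labelled WT and 3 labelled KO held 50% of its UMIs.

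Ccl3 (chr11:83647844-83649355, minus strand) and its neighbour Ccl4 (chr11:83662584-83664683, plus strand) encode chemokines that attract monocytes and T cells. Ccl3 stood at 4630 CPM (4320 to 4950) in members and 1680 in Retnlg-positive granulocytes labelled WT, and at 3680 (3270 to 4130) and 626 in the library labelled KO. Its log2 ratios were 1.46 (1.33 to 1.60) and 2.55 (2.27 to 2.85). Ccl4 stood at 5970 and 1720 CPM in the library labelled WT and at 2630 and 1220 CPM in the library labelled KO, with log2 ratios of 1.79 (1.67 to 1.92) and 1.11 (0.84 to 1.37). Its UMIs were concentrated like those of Cxcl3, with 50% of them in 8 members labelled WT and 2 labelled KO. For Ccl3 11 and 3 members held 50%, and 1 member labelled KO held 80 of its 292 UMIs. For Cxcl2 13 and 5 members held 50%. All 4 genes kept their direction without the barcodes over 3000 UMIs, but Ccl7 and Ccl12, ligands of Ccr2 made by macrophages, did not.

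Among other chemokines Cxcl1 had 21 UMIs in the members labelled WT and 5 in those labelled KO against 3 and 0 in the larger Retnlg-positive class. Ccl24 had 45 and 2 UMIs in the members. Ccl6 stood at 1800 and 1530 CPM in members and Retnlg-positive granulocytes labelled WT and at 1300 and 1660 in the library labelled KO, so its order differed between the libraries, but its log2 ratio labelled WT was -0.03 without the barcodes over 3000 UMIs.

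The promoters of Cxcl3 and Ccl3 are shown because these genes had the largest ratios by the smaller of both libraries among the chemokines with at least 20 UMIs in each library, and differ in a sequence pattern. Each stretch covers 250 bases before to 50 after the transcription start in RefSeq on GRCm38.p6, 5′ to 3′ on the gene's strand, with matches to GGG and CC set 5 bases apart, a simple form of the NF-kB binding pattern searched on both strands, in capitals. The Cxcl3 window is chr5:90785851-90786150 on the plus strand and held 5 matches, where overlapping matches on opposite strands count separately. The Ccl3 window is chr11:83649329-83649628 on the minus strand and held none, which says only that these letters are not in it. The pattern was in 50.8% of all 32851 promoters of this length. Counted by gene, with any of its promoters, it was in 14463 of all 27025 genes and in 2 of the 3 higher chemokines with a promoter in the table.
Cxcl3: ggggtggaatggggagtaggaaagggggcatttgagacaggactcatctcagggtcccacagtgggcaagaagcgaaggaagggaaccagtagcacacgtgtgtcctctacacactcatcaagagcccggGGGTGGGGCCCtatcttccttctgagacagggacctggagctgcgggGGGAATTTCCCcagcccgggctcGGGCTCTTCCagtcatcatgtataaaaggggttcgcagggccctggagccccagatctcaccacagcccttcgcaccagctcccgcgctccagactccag
Ccl3: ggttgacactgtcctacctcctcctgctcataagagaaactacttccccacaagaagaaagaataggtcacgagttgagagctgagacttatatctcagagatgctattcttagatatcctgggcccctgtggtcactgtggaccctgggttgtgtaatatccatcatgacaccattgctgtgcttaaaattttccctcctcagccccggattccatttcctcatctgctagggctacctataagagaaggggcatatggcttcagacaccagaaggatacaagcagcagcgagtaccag

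Hypoxia genes formed the group with the most members higher. Of 19 hypoxia-response genes with enough UMIs 13 were higher in the members of both libraries and none was lower. The shares over all genes compared were 6.14% and 2.63%. The median log2 ratio was 0.70 in the library labelled WT and 1.36 in the library labelled KO, beside 0.03 over all genes compared. The 13 were Slc16a3, Bnip3, Bnip3l, Egln3, P4ha1, Ankrd37, Ero1l, Mif, Hilpda, Ddit4, Higd1a, Plin2 and Upp1, and all kept their direction without the barcodes over 3000 UMIs, and all but Slc16a3 (-0.01 labelled WT) with thinning to 1000 UMIs. Summed over the 21 listed genes the level was 8560 CPM (8140 to 9000) in members against 5610 in Retnlg-positive granulocytes labelled WT, and 9270 (8610 to 9970) against 3960 in the library labelled KO. All other passing barcodes stood at 3220 and 3770 CPM. Macrophage markers summed to 2340 CPM in members and 2680 in Retnlg-positive granulocytes labelled WT, but to 3250 and 1570 labelled KO. Without the barcodes over 3000 UMIs the macrophage sums were 1190 and 879 CPM and 882 and 680 CPM, and the hypoxia sums 10200 and 6840 CPM and 9620 and 4320 CPM.

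Egln3, a prolyl hydroxylase that marks HIF for degradation and is itself induced by HIF, stood at 324 CPM (246 to 419) and 143 in members and Retnlg-positive granulocytes labelled WT, and at 466 (328 to 642) and 103 in the library labelled KO. Its log2 ratios were 1.17 (0.68 to 1.67) and 2.17 (1.41 to 2.97). P4ha1, a collagen prolyl hydroxylase subunit, stood at 358 and 124 CPM in the library labelled WT and at 277 and 119 in the library labelled KO, with log2 ratios of 1.52 (1.03 to 2.03) and 1.21 (0.35 to 2.06). Both genes were thus more than 2-fold higher in the members of each library, at low counts of 22 to 64 UMIs. Ero1l, which oxidises proteins in the endoplasmic reticulum, stood at 916 and 470 CPM labelled WT and at 756 and 231 labelled KO. Hilpda, an inhibitor of ATGL found on lipid droplets, stood at 682 and 351 CPM and at 642 and 231 CPM. Mif, a cytokine gene under HIF control, stood at 1310 and 846 CPM and at 1590 and 667 CPM. These 3 genes were higher in the members by 0.63 to 1.71 on the log2 scale, and their Retnlg-positive levels were lower in the library labelled KO.

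Not every hypoxia gene differed. Slc2a1, the glucose transporter GLUT1, had log2 ratios of 0.44 (-0.05 to 0.91) and 1.27 (0.62 to 1.92), and Vegfa, the angiogenic growth factor, 0.49 (-0.13 to 1.08) and 2.03 (1.08 to 3.04). For both, the interval included 0 in the library labelled WT alone, and the difference between libraries was not tested. Slc2a3, the glucose transporter GLUT3, went against the list, with log2 ratios of -1.07 (-1.72 to -0.48) and -0.45 (-1.34 to 0.35). Hif1a, Egln1 and Ndrg1 had intervals that included 0 in both libraries.

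The promoters of Egln3 and P4ha1, the hypoxia genes with the largest ratios by the smaller of both libraries, are shown with matches to ACGTG or GCGTG, the core of the HIF binding pattern searched on both strands, in capitals. The Egln3 window is chr12:54203825-54204124 on the minus strand with 1 match, and the P4ha1 window is chr10:59323046-59323345 on the plus strand with 3 matches, from the same RefSeq table. ACGTG was in 19.6% of all promoters, GCGTG in 32.4% and either in 43.8%. Either pattern was in 11 of the 11 higher hypoxia genes with a promoter in the table and in 17 of 17 of the whole list, in which genes known to answer to HIF had been gathered. Counted likewise by gene, with any of its promoters, it was in 12628 of all 27025 genes. A match is a description of sequence and shows no binding.
Egln3: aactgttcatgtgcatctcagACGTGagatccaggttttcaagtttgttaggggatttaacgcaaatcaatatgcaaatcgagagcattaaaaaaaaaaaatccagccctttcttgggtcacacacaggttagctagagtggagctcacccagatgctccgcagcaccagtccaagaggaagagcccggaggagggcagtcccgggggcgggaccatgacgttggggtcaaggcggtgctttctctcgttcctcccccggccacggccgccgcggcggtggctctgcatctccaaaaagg
P4ha1: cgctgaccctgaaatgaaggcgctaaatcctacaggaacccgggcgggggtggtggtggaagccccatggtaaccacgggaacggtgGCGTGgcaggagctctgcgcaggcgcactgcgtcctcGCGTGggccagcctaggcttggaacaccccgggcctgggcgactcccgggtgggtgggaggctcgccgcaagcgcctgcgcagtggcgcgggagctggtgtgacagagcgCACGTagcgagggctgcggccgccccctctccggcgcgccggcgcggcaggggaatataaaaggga

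**Figure D2:**
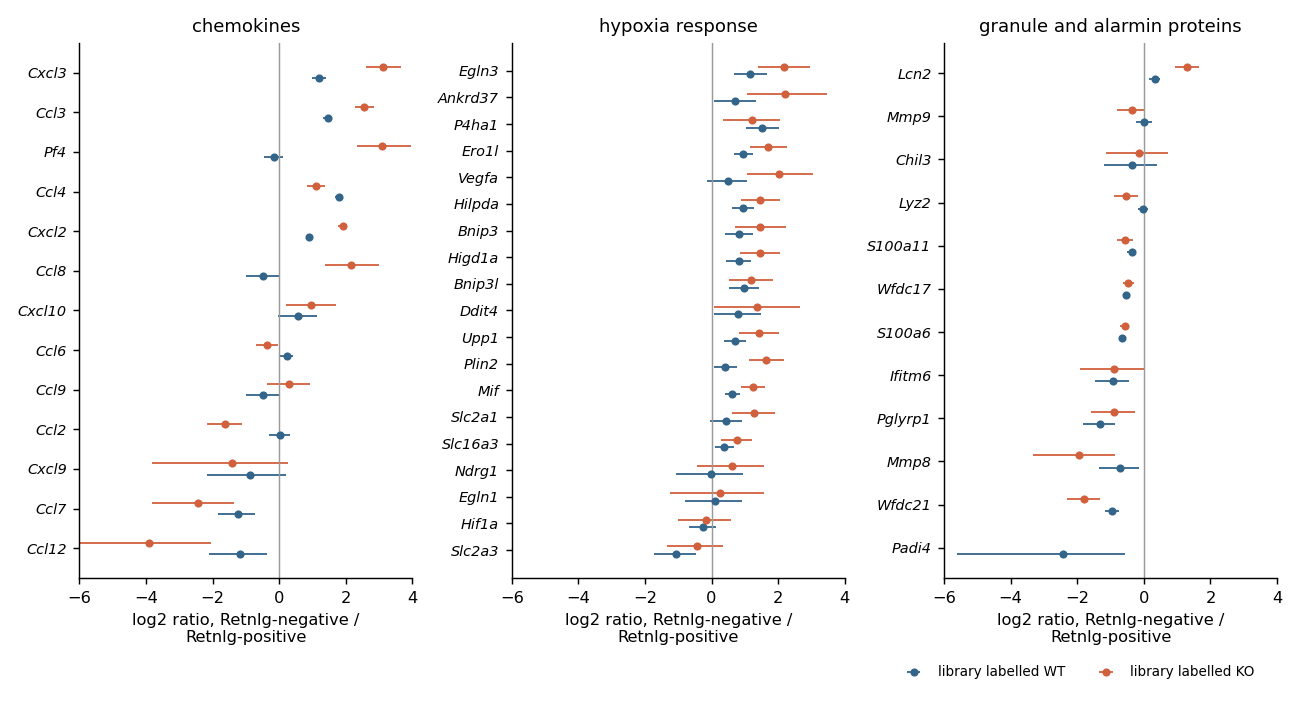
Log2 ratio of the level in Retnlg-negative over Retnlg-positive granulocytes (x axis, 0 is equal) for each gene with at least 20 UMIs over both classes in each library, in 3 lists; blue is the library labelled WT, orange the library labelled KO, and bars are 95% counting intervals, cut at the axis end for Ccl12. Cxcl2, Cxcl3, Ccl3, Ccl4 and 13 of 19 hypoxia genes had intervals above 0 in both libraries. Intervals of 8 of 12 granule and alarmin genes lay below 0. Padi4 had no UMI in the members labelled KO and is drawn for WT only.

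Glycolysis genes were higher as well, by less. Of 15 genes 7 were higher in both libraries and none was lower, beside 6.14% and 2.63% of all genes compared. The 7 were Hk2, Pfkl, Pfkp, Gapdh, Pgam1, Pkm and Ldha, and the list's median log2 ratios were 0.42 and 0.84. Ldha, which forms lactate, stood at 1240 and 860 CPM in members and Retnlg-positive granulocytes labelled WT and at 1490 and 717 CPM in the library labelled KO. Hk2, the hexokinase induced by hypoxia, stood at 626 and 384 CPM and at 844 and 338 CPM. The summed level of the list was 11400 CPM against 8790 labelled WT and 13300 against 7550 labelled KO, beside 8030 and 9160 in all other passing barcodes.

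Of 23 survival and cell-death genes 6 were higher in both libraries and none was lower, beside 6.14% and 2.63% of all genes compared. The 6 were Mcl1, Cflar, Tnfaip3, Gadd45b, Pim1 and Tnfrsf23, and the list's medians were 0.55 and 0.46. Mcl1, the BCL2-family protein on which neutrophil lifespan depends, stood at 2790 CPM (2550 to 3040) and 1860 in the library labelled WT and at 2430 (2100 to 2800) and 1770 in the library labelled KO, log2 ratios of 0.58 (0.43 to 0.74) and 0.46 (0.20 to 0.71). With thinning to 1000 UMIs the ratios of Mcl1 were 0.34 and -0.06, so its direction in the library labelled KO was lost, and the other 5 genes kept theirs. Cflar, which blocks caspase-8 activation, had log2 ratios of 0.71 (0.22 to 1.18) and 1.41 (0.61 to 2.21). Pim1, a kinase induced by growth-factor signalling, stood at 1850 and 1260 CPM and at 1340 and 696 CPM. Mcl1 was detected in 110 of 118 members labelled WT and 48 of 55 labelled KO, whereas Cflar was detected in 35 and 14, Tnfaip3 in 33 and 13, and Tnfrsf23 in 32 and 14. Bcl2l1, Bax, Bak1, Bid and Fas were among the 17 that were neither, as were Bcl2a1a, Bcl2a1b and Bcl2a1d, near-identical copies whose reads cannot be assigned with certainty. The summed level was 12100 against 8340 CPM labelled WT and 10200 against 7740 labelled KO.

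The NF-kB target genes had median log2 ratios of 0.77 and 0.90. Of 16 such genes 7 were higher in both libraries and none lower, beside 6.14% and 2.63% of all genes compared. The 7 were Nfkbia and Tnfaip3, which feed back on the pathway, Nfkbiz, Ier3, Sod2, Marcksl1 and Ptgs2. Nfkbia stood at 2240 and 1250 CPM in members and Retnlg-positive granulocytes labelled WT and at 1470 and 634 CPM in the library labelled KO. Sod2, the mitochondrial superoxide dismutase, stood at 497 and 167 CPM and at 252 and 107 CPM. Ptgs2, the cyclooxygenase that leads to prostaglandin E2, stood at 1140 and 492 CPM and at 731 and 301 CPM. In the members 50% of the Ptgs2 UMIs sat in 12 barcodes labelled WT and 2 labelled KO. Immediate early and dissociation-linked genes, which the digestion of tissue can raise, had 3 of 16 higher (Junb, Egr1 and Hsp90aa1), none lower and medians of 0.36 and 0.25. Hsp90aa1 labelled WT was -0.12 when the barcode with the most Hsp90aa1 UMIs was left out of each class. Fos stood at 838 and 823 CPM labelled WT and at 479 and 935 CPM labelled KO.

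On the cytokine and growth factor list, Il1rn, Il1r2 and Tnf of 9 genes were higher in both libraries, beside 6.14% of all genes compared. Il1r2 encodes a receptor for interleukin-1 and not a cytokine. Il1rn, the interleukin-1 receptor antagonist, stood at 1930 and 860 CPM labelled WT and at 1450 and 605 CPM labelled KO, log2 ratios of 1.17 (0.97 to 1.37) and 1.26 (0.89 to 1.62). Tnf had log2 ratios of 1.30 (0.74 to 1.85) and 1.21 (0.19 to 2.23) from 49 and 16 UMIs in the members. With thinning to 1000 UMIs the ratio of Tnf labelled KO was -0.71 on 1 UMI in the members, and that of Il1r2 was -0.10, so neither call held there. Il1b, high in both classes, stood at 4810 and 4100 CPM and at 4690 and 4230 CPM. Of 12 chemoattractant receptors Ccr1, Ccrl2, Ptafr and Hcar2 were higher, and Hcar2 stood at 983 and 692 CPM labelled WT and at 1360 and 498 CPM labelled KO. The log2 ratio of Hcar2 labelled WT, 0.51, was 0.06 without the barcodes over 3000 UMIs and 0.00 by the mean of per-barcode CPM, and that labelled KO, 1.45, was 1.31 and 1.30. The ratios of Ccr1 with thinning were -0.01 and -0.23. Cxcr2, Fpr2 and C5ar1, receptors by which neutrophils find inflamed tissue, had intervals that included 0 in both libraries.

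Of 15 genes listed as typical of tumour neutrophils 7 were higher and none lower, beside 6.14% and 2.63% of all genes compared. The list's medians were 0.67 and 0.51. Cd274, which encodes PD-L1, stood at 548 CPM (444 to 667) and 344 labelled WT and at 743 (566 to 959) and 214 labelled KO, log2 ratios of 0.67 (0.31 to 1.02) and 1.79 (1.23 to 2.36). Tnfrsf23, a decoy receptor for TRAIL, stood at 358 and 164 CPM and at 277 and 124 CPM. Spp1, which encodes osteopontin, stood at 1550 and 585 CPM and at 1370 and 482 CPM, and macrophages also make it. In the members 50% of the Spp1 UMIs sat in 6 barcodes labelled WT and 3 labelled KO. The remaining 4 were Cd14, Ptgs2, Ddit3 and Cstb.

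The list of granule and alarmin genes, called granule genes for short, mostly ran the other way. Of its 12 genes outside the rule 8 were lower in the members of both libraries, beside 2.63% of all genes compared. These were Mmp8, Pglyrp1, Wfdc21, Wfdc17, Padi4, Ifitm6, S100a6 and S100a11. Lcn2 was higher, and Mmp9, Chil3 and Lyz2 were neither. The list's median log2 ratios were -0.60 and -0.57. Its summed level was 25000 CPM (24200 to 25700) against 34600 labelled WT and 18700 (17700 to 19600) against 28000 labelled KO. The list is wider than granule proteins, and Wfdc17, S100a6 and S100a11 made up much of its sum. Labelled WT these 3 stood at 7520, 6440 and 3050 CPM in members and at 10900, 10200 and 3960 in Retnlg-positive granulocytes. All 8 kept their direction without the barcodes over 3000 UMIs, and all but Ifitm6 (0.23 labelled KO) with thinning to 1000 UMIs. Wfdc21, a small secreted whey acidic protein, stood at 1240 and 2390 CPM labelled WT and at 491 and 1720 labelled KO. Pglyrp1, a bactericidal granule protein, stood at 246 and 619 CPM and at 315 and 589 CPM. Padi4, which citrullinates histones in neutrophil extracellular traps, had 2 UMIs in the members labelled WT and 0 in those labelled KO, against 40 and 25 UMIs in Retnlg-positive granulocytes, and at a floor of 3 UMIs in the members it was at least 2.72-fold lower in the library labelled KO. Lcn2, a siderophore-binding granule protein, stood at 2150 and 1710 CPM and at 1550 and 630 CPM. It was nevertheless detected in fewer members (36.4% and 27.3%) than Retnlg-positive granulocytes (62.8% and 43.5%), 1 member held 62 of its 384 UMIs labelled WT and 1 held 61 of 123 labelled KO, and by the mean of per-barcode CPM its log2 ratio labelled WT was -0.10. Wfdc17 and the S100 genes are also made by monocytes and macrophages. S100a8, which the rule used, stood at 50500 and 75700 CPM labelled WT and at 35200 and 72200 CPM labelled KO.

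For the shorter counts that follow, the shares over all genes compared were 6.14% higher and 2.63% lower. The lists for maturation and ageing (10 genes, among them Cxcr4, Itgam and Cd24a) had none higher and none lower, with medians of -0.06 and 0.04. Of 6 NADPH oxidase genes, which serve the oxidative burst, Rac2 was lower in both, at 318 and 544 CPM labelled WT and 353 and 638 CPM labelled KO. Of 19 interferon-response genes Rsad2, Slfn4 and Gbp2 were higher, and of 9 endoplasmic reticulum stress genes Ddit3, Xbp1 and Ppp1r15a, of which Xbp1 stood at -0.33 labelled WT with thinning to 1000 UMIs. Of 7 lipid genes Ptgs2, Hcar2 and Plin2 were higher, and Alox5ap, needed for leukotriene synthesis, was lower at 704 and 915 CPM and at 617 and 873 CPM. Cell-cycle genes had 22 UMIs in the members labelled WT and 7 in those labelled KO. Alkbh5, an m6A eraser, was higher in both libraries by 1.40 (0.83 to 1.97) and 1.17 (0.27 to 2.07) on the log2 scale, from 48 and 20 UMIs. With thinning its ratio labelled KO was -0.23, on 2 UMIs in the members.

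Class II antigen-presentation genes depended on the deep barcodes. H2-Aa, H2-Ab1, H2-Eb1 and Cd74 were lower in the members of both libraries, Cd74 at 1590 and 2800 CPM labelled WT and 1700 and 2230 CPM labelled KO. Without the barcodes over 3000 UMIs in either class the log2 ratios in the library labelled WT were 1.47 for H2-Ab1, 0.98 for H2-Aa, 0.99 for H2-Eb1 and 0.89 for Cd74, the opposite direction. In the library labelled KO they were 0.99 for H2-Eb1 and 0.61 for Cd74, but -0.02 for H2-Aa and -0.73 for H2-Ab1. With thinning to 1000 UMIs only H2-Ab1 of the 4 kept its direction in both libraries, and the ratios labelled KO were 0.22 for H2-Aa, 0.17 for H2-Eb1 and 1.04 for Cd74. These genes mark macrophages, dendritic cells and B cells, and 2 members in each library held 50% of the Cd74 UMIs.

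Ranked by the smaller ratio of both libraries, the 10 genes highest over Retnlg-positive granulocytes were Ccl3, Tnf, Spp1, Ptgs2, Sod2, A930007I19Rik, Ccdc126, E230032D23Rik, 1700017B05Rik and Plekhm2, although Tnf did not keep its direction with thinning. E230032D23Rik stood at 402 and 137 CPM labelled WT and at 403 and 86.5 CPM labelled KO. The 10 lowest were Padi4, Rexo2, Adam19, Lpl, Rasgrp2, Pi16, Mapk14, Stk10, Psma3 and Hacd4, all with 6 UMIs or fewer in the members of each library, so their ratios carry wide intervals. In the library labelled KO Psma3 was 0.50 with thinning to 1000 UMIs and Lpl 0.18 without the barcodes over 3000 UMIs.

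The levels differed widely from member to member. Hypoxia genes held 8.87 to 424 per 10000 UMIs of a member labelled WT, with a median of 76.8 and quartiles of 42.3 and 135, and 0 to 402 with a median of 68.7 in the library labelled KO. Medians in Retnlg-positive granulocytes were 46.6 and 27.3. The 4 chemokines Cxcl2, Cxcl3, Ccl3 and Ccl4 held 0 to 2520 per 10000 with a median of 143 in members labelled WT and 0 to 2000 with a median of 68.1 in those labelled KO, against medians of 43.2 and 8.70 in Retnlg-positive granulocytes. They were at 0 in 16 of the 118 and 14 of the 55 members, so a part of the class had no detected UMI of these 4 genes at this depth. A UMI of any of the 22 listed chemokines was present in 111 of the 118 and 53 of the 55 members. Granule genes had medians of 207 and 181 in members and 369 and 306 in Retnlg-positive granulocytes. All of these ranges overlapped between the classes.

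**Figure D3:**
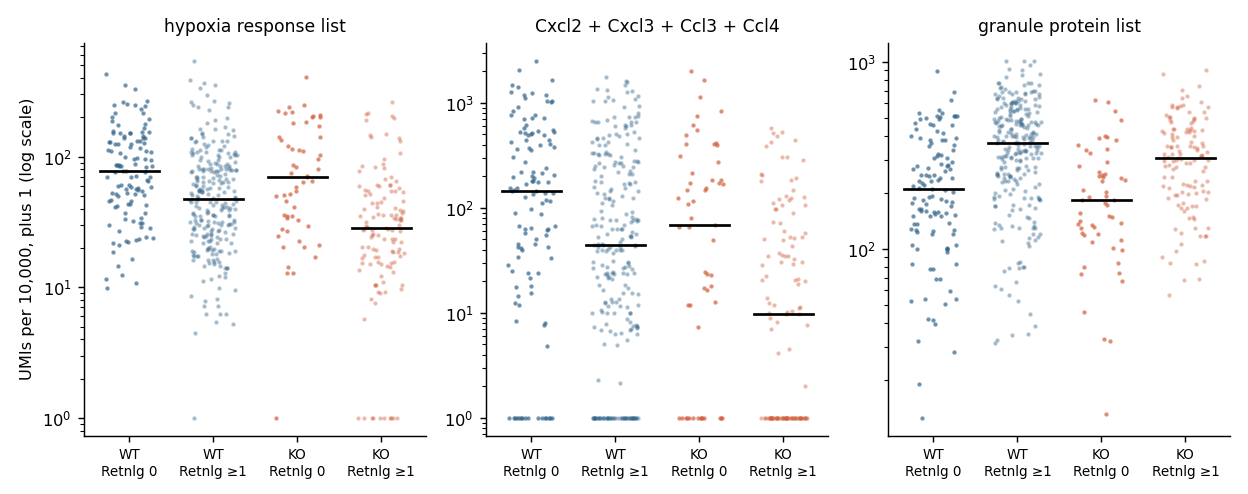
UMIs per 10000 of each barcode, plus 1, on a log scale (y axis) for the hypoxia list, the sum of Cxcl2, Cxcl3, Ccl3 and Ccl4, and the granule list, in granulocyte barcodes with 0 or at least 1 Retnlg UMI of each library. Each point is a barcode and each line a median; the medians without Retnlg were higher for hypoxia (76.8 and 68.7) and chemokines (143 and 68.1) and lower for granule genes (207 and 181), and the points overlap.

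Within the members, barcodes high in hypoxia genes were also high in glycolysis genes, with Spearman's rank correlation of 0.75 over 118 barcodes labelled WT and 0.73 over 55 labelled KO. The correlation between hypoxia genes and the 4 chemokines was 0.39 and 0.71, between NF-kB targets and the chemokines 0.63 and 0.34, and between hypoxia and granule genes -0.31 and -0.58. In Retnlg-positive granulocytes the same pairs stood at 0.70 and 0.58 for hypoxia and glycolysis, 0.59 and 0.58 for hypoxia and the chemokines, 0.56 and 0.52 for NF-kB targets and the chemokines, and -0.41 and -0.30 for hypoxia and granule genes. With depth, the correlation of hypoxia genes was -0.14 and 0.08. The barcodes of a library share its processing and each barcode's shares sum to a fixed total, so these coefficients are descriptions.

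Granulocyte barcodes were also binned by Retnlg UMIs. The count was not scaled to depth, and the median depth was 1181.5 UMIs at 0 and 1928 at 10 or more Retnlg UMIs labelled WT, and 891 and 1430.5 labelled KO. Hypoxia genes stood at 8560 CPM at 0 Retnlg UMIs, 7660 at 1, 5230 at 2, 7080 at 3 to 9 and 4440 at 10 or more in the library labelled WT. In the library labelled KO the same bins held 9270, 5230, 3860, 4080 and 3400 CPM, with the widest step between 0 and 1 UMI. Cxcl2 was highest at 1 UMI in the library labelled WT (25100 CPM, against 19900 at 0), and at 0 in the library labelled KO (12300, against 4840 at 1). Cxcl2 was lowest at 10 or more Retnlg UMIs in both, at 4460 and 921 CPM, whereas granule genes were highest there, at 39700 and 35600 CPM. The bins at 2 Retnlg UMIs held 23 and 13 barcodes.

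**Figure D4:**
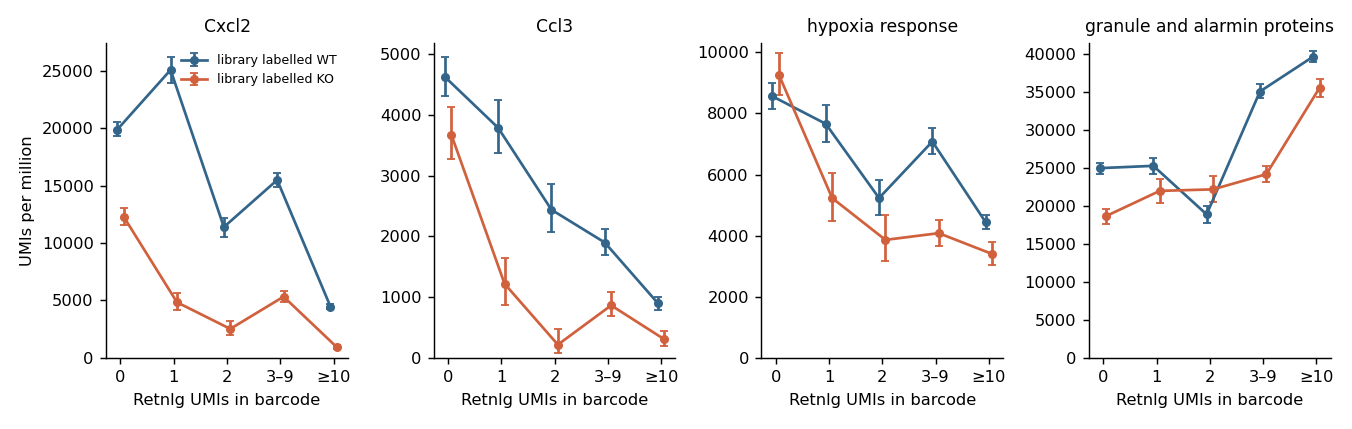
Level in CPM (y axis) of Cxcl2, Ccl3, the hypoxia list and the granule list in granulocyte barcodes binned by their Retnlg UMIs (x axis), for the libraries labelled WT (blue) and KO (orange), with 95% Poisson intervals as bars. Cxcl2 was 19900 and 12300 at 0 Retnlg UMIs and 4460 and 921 at 10 or more; granule genes were 25000 and 18700 at 0 and 39700 and 35600 at 10 or more.

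Between the libraries, the chemokine list had a lower summed level in the members labelled KO, with a log2 ratio of -0.61 (-0.69 to -0.54), KO over WT, and -0.41 without the barcodes over 3000 UMIs. Of 15 chemokines compared, Ccl4 and Ccl24 were at least 2-fold lower and none higher, beside 1.91% and 5.14% of all genes. The 45 UMIs of Ccl24 labelled WT sat in 3 members, and without the barcodes over 3000 UMIs its ratio was 1.38, the opposite direction. In Retnlg-positive granulocytes the list stood at 19300 CPM labelled WT and 10000 labelled KO. NF-kB targets differed by -0.44 (-0.57 to -0.32), granule genes by -0.42 (-0.51 to -0.33) and survival genes by -0.24 (-0.36 to -0.12), and without the deep barcodes by -0.37, -0.25 and -0.11. Hypoxia genes differed by 0.11 (-0.01 to 0.24), an interval that includes 0, and by -0.08 without the deep barcodes. Glycolysis genes differed by 0.23 (0.12 to 0.34), but by 0.01 without the deep barcodes. Interferon-response genes differed by 0.02 (-0.08 to 0.12).

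**Figure D5:**
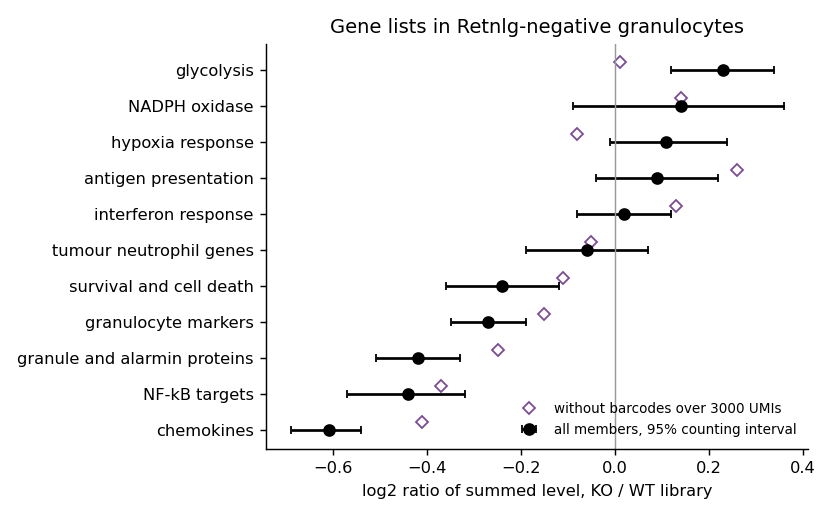
Log2 ratio, KO over WT, of the summed level of each gene list in Retnlg-negative granulocytes (x axis, 0 is equal), with 95% counting intervals (black), and the same ratio without barcodes over 3000 UMIs (open diamonds). Chemokines were lowest at -0.61, and the hypoxia list at 0.11 moved to -0.08 without the deep barcodes.

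Gene by gene, 172 of 3348 genes compared (5.14%) were at least 2-fold higher and 64 (1.91%) at least 2-fold lower in the members labelled KO, with a counting interval clear of 0. The median log2 ratio over these genes was 0.21, and after subtracting it 125 were higher and 124 lower. Of the uncentred genes 154 of the 172 and 63 of the 64 kept their direction without the barcodes over 3000 UMIs. Markers of other cells differed with this contrast. Monocyte markers were higher in sum by 0.37 (0.11 to 0.63), or 0.88 without those barcodes, and of 7 compared Plac8, Ms4a4c and Ly6c2 were called higher and Fn1 lower. Macrophage markers differed by 0.47 (0.24 to 0.70), or -0.44 without those barcodes, and the part of either list in the comparison was not tested. Ccl4 differed by -1.18 (-1.40 to -0.97), or -0.62 without those barcodes, and Cxcl2 by -0.69 (-0.80 to -0.59), or -0.57. The ratios of Ccl4 and Cxcl2 in Retnlg-positive granulocytes were -0.49 and -1.70. Cxcl3 differed by -0.18 (-0.49 to 0.12) and Ccl3 by -0.33 (-0.53 to -0.14).

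Lyz2, the lysozyme gene whose allele carries Cre in the KO mice, stood at 2730 CPM in the members labelled WT and 1050 in those labelled KO, a log2 ratio of -1.38 (-1.74 to -1.04). In each library 3 members held 50% of the Lyz2 UMIs, and without the barcodes over 3000 UMIs the ratio was -1.0. In Retnlg-positive granulocytes it was -0.88. Gbp2, an interferon-induced GTPase, was higher by 1.07 (0.57 to 1.57) in the members and by 1.03 in Retnlg-positive granulocytes. Among genes chosen by size of ratio, Ly6c2, Metrnl, Tmsb10, Mxi1, Vim, Arhgap9, Mt1 and Fis1 were higher in the members labelled KO. Ly6c2, a monocyte surface antigen, differed by 2.15 (1.01 to 3.43) from 10 and 20 UMIs and by -0.24 without the barcodes over 3000 UMIs. Mxi1, a MYC antagonist, differed by 1.69 (0.78 to 2.66) and by -0.27 without them, and Vim, an intermediate filament gene of many leucocytes, by 1.67 (1.20 to 2.15) and 0.24. Metrnl, a secreted meteorin-like factor, and Tmsb10, an actin-binding thymosin, kept 1.60 and 1.30 of their 1.77 and 1.70. For Arhgap9, Mt1 and Fis1 the values without those barcodes are not reported here, so their ratios may rest on few deep barcodes.

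Lower in the members labelled KO were Stfa1, Il1a, Cited2, Ip6k1, Tab2, Amn1 and Phf21a. Stfa1 had 45 UMIs in 5 members labelled WT and 0 in the library labelled KO, at least 6.65-fold lower at a floor of 3 UMIs in the class, and its copies in the stefin A family make the count uncertain. Il1a, the cytokine interleukin-1 alpha, had 33 and 3 UMIs, a log2 ratio of -2.26 (-4.64 to -0.61). Cited2, a transcriptional coregulator that limits HIF activity, had 38 and 5 UMIs, a log2 ratio of -1.74 (-3.46 to -0.41). Ip6k1, Tab2, Amn1 and Phf21a had 26 to 30 UMIs against 4. Genotype, library and the mix of depths cannot be told apart in these comparisons.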

How the data were processed

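Live CD45+ cells of B16 tumours were profiled with the 10x Genomics 3′ v3 chemistry, 1 library for WT and 1 for KO. The authors aligned reads to mm10 with Cell Ranger (version 4.0.0 per the file headers) and deposited a matrix of raw UMI counts per gene and barcode, not normalised; the library of a barcode came from a deposited table. The study's methods removed doublets, but the rule used here does not. Scrublet in scanpy 1.11.5 marked 1 barcode in each library, too few to have worked, and removing the 256 and 532 highest-scoring barcodes took out 5 and 1 members.

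Members and gene lists were chosen with earlier results of these data known. For each class of barcodes in a library the counts were added up and expressed as UMIs per 1000000 of that class (CPM). Log2 ratios across genes carried a pseudocount of 1 CPM and covered genes at 50 CPM or more in either class or library, except the rule's genes and genes for haemoglobins, ribosomal proteins and mitochondrial transcripts, and the pseudocount understates the change of low genes. Calls needed a log2 ratio of 1 in each library, or at least 20 UMIs per library and both 95% intervals on the same side of 0. The second rule, the removal of barcodes over 3000 UMIs, a C1q limit of 50 and thinning to 500 UMIs were chosen after seeing the data. C1q-high barcodes had C1q genes at 20 or more per 10000 UMIs and Cd3-positive barcodes had a UMI of a Cd3 gene and C1q genes at 5 or fewer.

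Named genes were the given markers, up to 8 of the highest members at 50 CPM or more of each list together with those past 2-fold in both libraries, the 10 highest and 10 lowest ratios against Retnlg-positive granulocytes with at least 20 UMIs, the 10 highest against all other barcodes, the 8 highest and 8 lowest KO over WT ratios with at least 30 UMIs and no barcode holding over 33.3% of them, and Mettl3, Lyz2 and genes needed for checks of copies or mixed barcodes. Some genes that meet the rule are not reported here. Other list members named by a count were chosen after their values were seen. Gene positions came from GENCODE on GRCm38, promoters from RefSeq on GRCm38.p6. Total depth was 45963969 UMIs labelled WT and 54052317 labelled KO. The statistics were tested on simulated data. Python 3.11.15, numpy 2.4.6, scipy 1.17.1 and pandas 2.3.3 were used.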

Additional observations from a re-analysis of the deposited data

Results flagged for a closer look

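For 5 genes the ratio of Retnlg-negative over Retnlg-positive granulocytes pointed in opposite directions in the libraries labelled WT and KO, with both counting intervals clear of 0. Fn1, fibronectin, had log2 ratios of 0.73 labelled WT and -1.21 labelled KO. Its 116 UMIs labelled WT sat in 8 members, 1 of which held 56, and without the barcodes over 3000 UMIs 2 UMIs were left and the ratio labelled WT was -1.41, the same direction as labelled KO. Cd36, a fatty acid transporter, had -1.45 and 1.26, and Hmox1, the haem-degrading enzyme, had -0.40 and 0.97. Without those barcodes the ratios labelled WT were 1.76 for Cd36, on 3 UMIs in the members, and 0.48 for Hmox1, so neither still pointed in opposite directions. The chemokine gene Ccl6 had 0.23 and -0.35, and -0.03 and -0.60 without those barcodes, and the class I antigen-presentation gene H2-D1 had 0.29 and -0.29, and 0.30 and -0.39 without them. These differences between the libraries were not tested, since each genotype has 1 library of pooled mice. Fn1, Cd36 and Hmox1 are also expressed by macrophages, whose markers summed to 2340 and 3250 CPM in the members, and the part of these markers in the ratios was not tested.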

How the results depend on the processing

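The share of members among passing barcodes was lower in the library labelled KO under every alternative tried, with log2 ratios of -1.91 to -1.19. The log2 ratio of the Retnlg-negative share of granulocytes was -0.03, 0.68 with only barcodes of 2000 UMIs or more, and -0.45 with barcodes thinned to 1000 UMIs. The 104 genes at least 2-fold higher than in Retnlg-positive granulocytes became 212 with barcodes of at least 2000 UMIs, 193 with at most 3000, 205 with a minimum of 20 CPM, 59 with a C1q limit of 50 per 10000, and 493 and 307 with thinning to 1000 and 500 UMIs. Genes higher than in all other barcodes, 687, became 433 with at least 2000 UMIs and 442 with at most 3000. The 172 genes higher in the members labelled KO became 108 and 49 with thinning to 1000 and 500 UMIs. The 64 lower ones became 28 with an alarmin minimum of 400 per 10000, 42 with at most 3000 UMIs, 28 and 31 with thinning to 1000 and 500, and 124 after centring on the median. Why the counts changed was not tested.

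Of 174 named ratios over Retnlg-positive granulocytes, 29 of 870 recomputed values reversed, and of 16 ratios KO over WT 2 of 80 did. With thinning to 1000 UMIs the reversed log2 ratios labelled WT were -0.01 for Ccr1, -0.33 for Xbp1, -0.01 for Slc16a3 and 0.01 for H2-Eb1. Those labelled KO were -0.10 for Il1r2, -0.06 for Mcl1, 0.23 for Ifitm6, -0.23 for Ccr1, -0.23 for Alkbh5, 0.50 for Psma3, 0.22 for H2-Aa, 0.17 for H2-Eb1, -0.71 for Tnf and 1.04 for Cd74. With the mean of per-barcode CPM they were -0.10 for Lcn2 and for Clec4e and 0.04 for Ccl12 labelled WT, and 0.00 for H2-Eb1 labelled KO. With at most 3000 UMIs they were -0.02 for Clec4e, 0.73 for Ccl7, 0.74 for Ccl12, 1.47 for H2-Ab1, 0.98 for H2-Aa, 0.99 for H2-Eb1 and 0.89 for Cd74 labelled WT, and 0.18 for Lpl, 0.99 for H2-Eb1 and 0.61 for Cd74 labelled KO, and the KO over WT ratios were -0.24 for Ly6c2 and -0.27 for Mxi1. Hsp90aa1 was -0.12 labelled WT when the barcode with the most UMIs of that gene was left out of each class. No paired analysis was possible because each genotype had 1 library. Depth limits genes with few UMIs, and intervals cover counting error only.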
